A study of Sus scrofa with 29 samples.

Results

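This report describes the ubiquitin-conjugating and ubiquitin-removing enzymes and the proteasome subunits in the inner lining of pig arteries. The members were found by gene symbol: proteasome genes (PSMA to PSMG, without PSMB8 and PSMB9), the UBE enzymes, the USP deubiquitinases (without USP2 and USP18) and the membrane-bound MARCH ligases. Of 6765 genes with a symbol of their own on the array, 88 were members, and they were measured by 126 of 10069 such probe sets. Each gene was represented by its probe set with the highest mean over all arrays. The rule itself uses symbols and that mean alone.

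Ubiquitin is a small protein that is activated by an E1 enzyme, passed to an E2 conjugating enzyme and attached to its target with the help of an E3 ligase. Chains of ubiquitin can send a protein to the 26S proteasome, a barrel (the 20S core of alpha and beta rings) capped by a 19S particle that recognises, unfolds and feeds in the substrate. Other chains act as signals in trafficking, DNA repair and inflammatory signalling, and deubiquitinases take them off again. In endothelial cells this system is known for controlling the turnover of surface receptors, junction proteins and signalling factors.

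The study compared healthy pigs trained on a treadmill with sedentary ones, in 2 arteries: the brachial artery of the foreleg and the internal mammary artery behind the breastbone. Training ran over 16 to 20 weeks, reaching 5 days a week, and tissue was taken about 24 h after the last bout, whereas sedentary pigs were kept confined to their pens. There were 7 exercised and 7 sedentary brachial samples, and 8 exercised and 7 sedentary internal mammary samples. The 29 arrays came from 15 pigs, and 14 pigs gave both arteries. No age, sex or breed is given in the sources used here.

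The samples were scrapes of the luminal surface, enriched in endothelium rather than pure. PECAM1, a surface protein of endothelial cells, had a mean array value of 13.97 on the log2 scale, above 99.8% of all probe sets. Transcripts of smooth muscle were abundant as well: ACTA2, its actin, had 13.76. Of 14 endothelial markers 12 were measured, and KDR, the main receptor of VEGF, was low at 4.03. Some quality measures did not overlap between the arteries. The gap between the 3' and 5' actin control probe sets was 1.03 to 1.75 in internal mammary arrays and 1.80 to 2.74 in brachial arrays, and the mean of 9 hybridization spikes was 10.73 to 11.33 and 11.53 to 12.01. The 28S ribosomal RNA control probe set was 10.81 to 13.42 in internal mammary and 7.83 to 9.92 in brachial arrays. In internal mammary arrays it was 10.81 to 11.95 in the 8 pigs collected first and 12.83 to 13.42 in the 7 collected last. In brachial arrays these periods overlapped, at 7.83 to 9.86 and 8.43 to 9.92. Whether this has a part in differences between the periods was not tested. The 28S/18S ratio of the RNA did overlap between arteries, at 1.07 to 1.47 and 1.20 to 1.79. For every comparison between arteries, vessel and array handling therefore cannot be told apart. Within the internal mammary artery the 28S/18S ratio was 1.07 to 1.29 in sedentary and 1.25 to 1.47 in exercised samples. Whether RNA quality has a part in the training differences was not tested. The number of arrays limits the precision of every value.

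Across training, the member with the largest difference by far was MARCH3, a membrane-bound ubiquitin ligase of the endosomal system. In the brachial artery its array values (log2 intensity) were 5.39, 6.22, 6.29, 6.44, 6.61, 6.66 and 7.91 in exercised pigs and 7.40, 7.52, 7.63, 8.42, 8.44, 9.01 and 9.06 in sedentary pigs. All but 1 of the exercised arrays lay below every sedentary one, and the exception came from pig 15_4. In the internal mammary artery the exercised arrays ran from 5.40 over a median of 6.41 to 8.34, and the sedentary arrays from 6.03 over 8.12 to 9.10. There the groups overlapped through the same pig 15_4, the highest of the exercised pigs in both arteries, and through sedentary pig 17_1, the lowest of the sedentary pigs in both.

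With training MARCH3 fell in the brachial artery, with a log2 difference of -1.73 (standard error 0.40), 3.31-fold lower (adjusted p = 0.0250, limma with Benjamini-Hochberg adjustment over all 23999 probe sets). Averaged over both arteries it also fell, with -1.57 (standard error 0.31, 2.96-fold lower, adjusted p = 0.00401). In the internal mammary artery alone the log2 difference was -1.41 (95% interval -2.20 to -0.61, adjusted p = 0.0869). The difference between both training effects was -0.32 (95% interval -1.31 to 0.67, adjusted p = 1.00), so the arteries were not shown to differ. In bulk samples such as these, fewer cells of a type and less RNA per cell cannot be told apart.

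**Figure D1:**
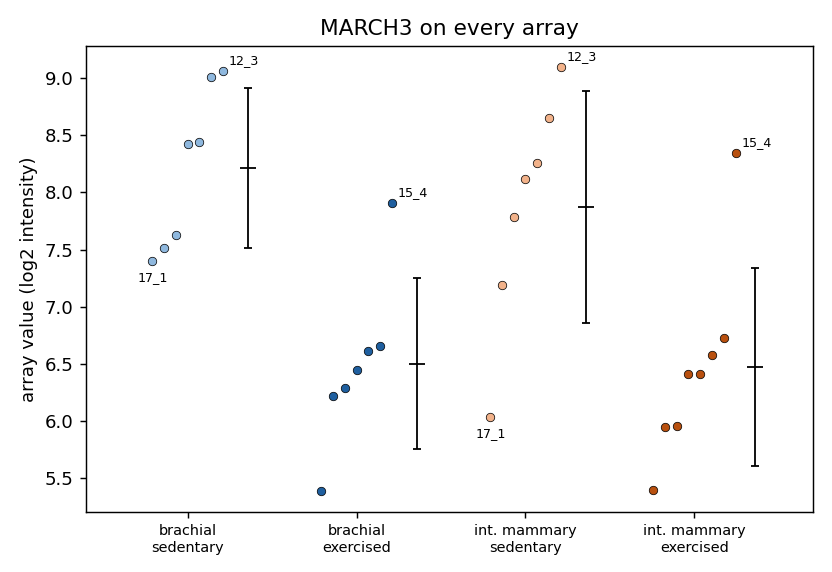
MARCH3 array value (log2 intensity, vertical axis) on each of the 29 arrays, by artery and training group; each point is 1 pig, and the horizontal tick with bars is the group mean with its SD. Most exercised arrays sit below 7, pig 15_4 stands above the other exercised pigs in both arteries, and pig 17_1 is the lowest sedentary pig in both.

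Macrophage transcripts were also lower with training in the brachial artery. Of 15 macrophage markers 11 were measured, and 3 of them fell there, with none passing in the internal mammary artery. The mean of the 11 was 7.74 to 8.21 in exercised and 8.11 to 9.06 in sedentary brachial arrays. Adding that mean to the fit gave a brachial MARCH3 difference of -1.48 (adjusted p = 0.271) and an average over both arteries of -1.43 (adjusted p = 0.0307). The 12 smooth muscle markers measured, of 15, all had negative training differences in both arteries and none passed. Their mean was 11.18 to 12.62 in exercised and 11.28 to 12.98 in sedentary brachial arrays, and 11.15 to 12.50 and 11.38 to 12.75 in internal mammary arrays. Adding it to the fit gave MARCH3 differences of -1.77 (brachial, adjusted p = 0.0149) and -1.61 (average, adjusted p = 0.00605). The macrophage mean was 8.09 to 8.81 in exercised and 8.24 to 8.99 in sedentary internal mammary arrays. Whether the cell content of the samples has a part in the MARCH3 difference was not tested. The average MARCH3 difference was -1.91 in the 8 pigs collected first (adjusted p = 0.0206) and -1.14 in the 7 collected last (adjusted p = 0.509). It kept its call when any 1 of the 15 pigs was left out, with a range of -1.81 to -1.39. The brachial call was lost without pig 10_5, 11_1, 12_5 or 14_3, at adjusted p of 0.0515 to 0.0647.

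Across the 88 members, 2 fell and none rose in the brachial artery (2.27%, against 1.63% of all probe sets that passed there). None passed in the internal mammary artery, against 0.596% of all probe sets, and 17 of 88 had an unadjusted p under 0.05 in limma, as did 2945 of all 23999 probe sets. For the mean of both arteries 1 member rose and 6 fell (7.95%), beside 4.68% of all probe sets. The test of the difference between both training effects called no probe set (0%) and no member. In limma 1035 probe sets and 1 member, USP9X, had an unadjusted p under 0.05 there. Log2 differences were negative for 54 of 88 members in the brachial artery, 62 in the internal mammary artery and 58 on average, with medians of -0.03, -0.05 and -0.04. Over all probe sets the medians were 0.01, 0.01 and 0.01.

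**Figure D2:**
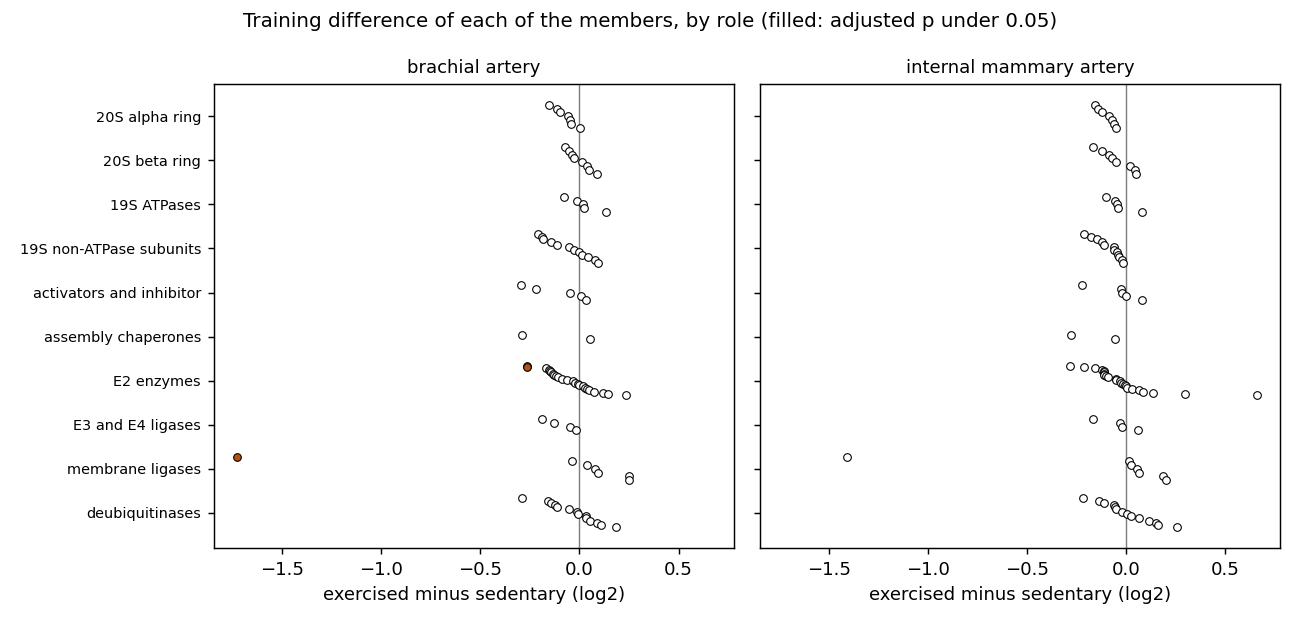
Log2 difference exercised minus sedentary (horizontal axis) of each of the 88 members in the brachial (left) and internal mammary artery (right), by role; each point is 1 gene, filled where the adjusted p was under 0.05. MARCH3 lies far to the left in both arteries, and most other members lie within 0.3 of 0.

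Among the E2 enzymes, 24 in number, UBE2N and UBE2F fell and UBE2E3 rose on average over both arteries, and 21 did not pass. The share that passed was 12.5%, beside 4.68% of all probe sets. UBE2N builds ubiquitin chains that act as signals rather than for degradation. Its values ran from 10.69 over a median of 10.87 to 11.15 in exercised and from 10.87 over 11.22 to 11.30 in sedentary brachial arrays. Internal mammary arrays ran from 10.64 over 10.72 to 10.83 in exercised and from 10.81 over 10.92 to 11.16 in sedentary pigs. The ranges overlapped in both arteries, but 6 of 7 brachial and 8 of 8 internal mammary exercised arrays lay below the sedentary mean. UBE2N fell on average (log2 difference -0.24, standard error 0.05, adjusted p = 0.00964, limma) and in the brachial artery (-0.26, standard error 0.07, adjusted p = 0.0442). The brachial call was kept without pig 10_5, 13_2, 15_1 or 15_4 and lost without any of the other 11, at adjusted p of 0.0524 to 0.115, and with the macrophage covariate it was -0.24 (adjusted p = 0.295). Its internal mammary difference was -0.21 (adjusted p = 0.143). UBE2V1 and UBE2V2, the partners with which UBE2N makes its chains, had average differences of -0.04 and -0.10 and did not pass.

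UBE2F, which attaches NEDD8, a protein related to ubiquitin that switches on the cullin ligases, was 9.36 to 9.66 in exercised and 9.55 to 9.93 in sedentary brachial arrays. Internal mammary arrays ran from 9.23 to 9.92 and from 9.52 to 10.17. All 7 exercised brachial arrays lay below the sedentary mean, as did 7 of 8 internal mammary ones. On average UBE2F fell, with -0.27 (standard error 0.07, adjusted p = 0.0300, limma). UBE2M, the other E2 enzyme for NEDD8, had an average difference of 0.02 (95% interval -0.14 to 0.19, adjusted p = 0.920).

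UBE2E3 was the single member that rose. It was 11.61 to 11.79 in exercised and 11.29 to 11.67 in sedentary brachial arrays, and 11.60 to 11.84 and 11.31 to 11.81 in the internal mammary artery. Every exercised array lay above the mean of the sedentary arrays of its artery. The average rise was 0.19 (standard error 0.05, adjusted p = 0.0333, limma), with 0.24 in the brachial (adjusted p = 0.0603) and 0.14 in the internal mammary artery (adjusted p = 0.382). Its other 2 probe sets gave 0.21 and 0.22 and did not pass.

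UBE2C and UBE2T were positive without passing. UBE2C works with the anaphase-promoting complex in mitosis, and UBE2T acts in the repair of crosslinked DNA. UBE2C in internal mammary arrays ran from 6.99 over 7.58 to 8.98 in exercised and from 6.52 over 6.97 to 7.70 in sedentary arrays. The difference there was 0.66 (95% interval 0.10 to 1.22, adjusted p = 0.296), while a dimmer probe set of the same gene gave -0.00. UBE2T had 0.30 in the internal mammary artery (adjusted p = 0.135) and 0.12 in the brachial artery (adjusted p = 0.619).

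Of the 4 measured ligases of the UBE3 and UBE4 series, UBE3A, the HECT-type ligase whose loss causes Angelman syndrome, fell. It was 10.57 to 10.76 in exercised and 10.68 to 10.95 in sedentary brachial arrays, and 10.58 to 10.95 and 10.86 to 11.15 in the internal mammary artery. Every exercised array lay below the sedentary mean of its artery, though the ranges overlapped. On average UBE3A fell, with -0.18 (standard error 0.05, adjusted p = 0.0247, limma). UBE4A, a ligase that extends existing chains, had an average difference of -0.08 (adjusted p = 0.662).

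Of the 7 membrane ligases 6 did not pass in any training comparison, and 5 of 7 had positive differences in the brachial artery. MARCH8 and MARCH2, which remove receptors from the cell surface, had the largest positive values. MARCH8 was 11.44 to 12.00 in exercised and 11.21 to 11.70 in sedentary brachial arrays, with an average difference of 0.23 (95% interval 0.04 to 0.42, adjusted p = 0.165). MARCH2 had 0.22 on average (adjusted p = 0.153). Both stand on the opposite side of 0 from MARCH3.

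Of the 14 deubiquitinases 1 passed on average over both arteries (7.14%), beside 4.68% of all probe sets. USP7, which stabilises MDM2 and other nuclear proteins by removing ubiquitin, was 10.50 to 10.66 in exercised and 10.63 to 10.81 in sedentary brachial arrays, and 10.51 to 10.68 and 10.61 to 10.80 in the internal mammary artery. Every exercised array lay below the sedentary mean of its artery. On average USP7 fell by a small step, with -0.13 (standard error 0.03, adjusted p = 0.0311, limma), and the dimmer second probe set of USP7 gave -0.01 (adjusted p = 0.964). USP24 came next with -0.25 on average (standard error 0.08, adjusted p = 0.0565).

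USP9X, a deubiquitinase of trafficking and signalling proteins, had the smallest p of the members in the test between the training effects. Its internal mammary values were 10.44 to 10.83 in exercised and 9.94 to 10.81 in sedentary arrays, and all 8 exercised arrays lay above the sedentary mean. The training difference was 0.26 in the internal mammary artery (adjusted p = 0.306) and -0.05 in the brachial artery (adjusted p = 0.874). The difference between them was -0.31 (standard error 0.13, unadjusted p = 0.0283, adjusted p = 1.00), so the arteries were not shown to differ.

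PSMG1, a chaperone that helps the alpha ring of the proteasome to assemble, fell with training. It was 9.19 over a median of 9.45 to 9.75 in exercised and 9.53 over 9.79 to 10.05 in sedentary brachial arrays. Internal mammary arrays gave 9.29 over 9.45 to 9.61 and 9.52 over 9.78 to 10.04. Every exercised array lay below the sedentary mean of its artery. On average PSMG1 fell, with -0.28 (standard error 0.07, adjusted p = 0.0163, limma). The brachial difference was -0.29 (adjusted p = 0.0862) and the internal mammary one -0.28 (adjusted p = 0.133). In the 8 pigs collected first the average was -0.47 (adjusted p = 0.0341), and in the 7 collected last it was -0.06 (adjusted p = 0.849). PSMG3, the other measured chaperone of this kind, had an average difference of -0.00.

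**Figure D3:**
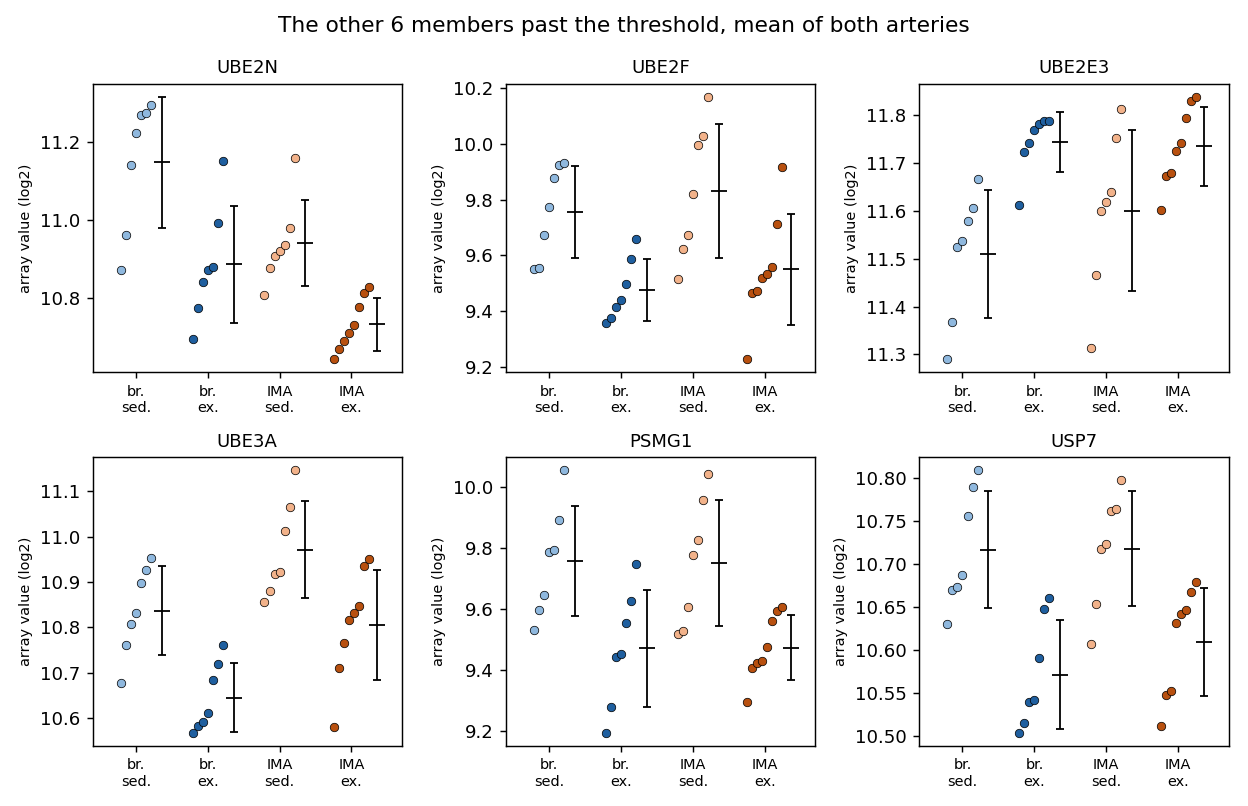
Array values (log2 intensity, vertical axes) of UBE2N, UBE2F, UBE2E3, UBE3A, PSMG1 and USP7 on each array, by artery (br., brachial; IMA, internal mammary) and training group (sed., sedentary; ex., exercised); points are pigs and bars are the group mean with its SD. The exercised points lie lower than the sedentary ones in both arteries for 5 genes and higher for UBE2E3, with overlap in every panel.

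The calls of these 6 were not equally stable. For the average over both arteries, PSMG1 and UBE2N kept theirs, as MARCH3 did, when any 1 pig was left out. UBE3A kept it in 11, USP7 in 8, UBE2E3 in 7 and UBE2F in 6 of 15 such fits. Of the 16 alternatives other than leaving out 1 pig, USP7 lost its average call in 8, UBE2E3 in 6 and UBE3A in 5. UBE2F and UBE2N lost theirs in 4, PSMG1 in 3 and MARCH3 in 2. Over these 16 the average difference of UBE3A ran from -0.29 to -0.06 and that of USP7 from -0.14 to -0.01. In a fit of per-pig means over the 14 pigs with both arteries (pig as a fixed block), no member passed on average. There 1.52% of all probe sets passed, against 4.68% in the main fit, and MARCH3 stood at -1.52 (adjusted p = 0.0545). When the macrophage mean was added to the fit, MARCH3 alone of the members passed, beside 1.75% of all probe sets. The other 6 had log2 differences from -0.29 to 0.14.

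None of the 32 measured subunits of the 26S proteasome (PSMA, PSMB, PSMC and PSMD genes) passed in any training comparison. By the names used here, PSMD5 and PSMD10 are counted among them although they are known as assembly chaperones of the base. Most differences were negative: 20 of 32 in the brachial artery, 28 of 32 in the internal mammary artery and 25 of 32 on average, where 46.7% of all probe sets were negative. The medians of the 32 were -0.03, -0.06 and -0.06. In limma 3, 3 and 7 of the 32 had an unadjusted p under 0.05, beside 3686, 2945 and 4447 of all 23999 probe sets. The 28S/18S ratio was 1.07 to 1.29 in sedentary and 1.25 to 1.47 in exercised internal mammary samples, and with it as a covariate the median there was -0.09, with 28 of 32 negative. The 95% intervals of the 32 average differences all lay between -0.38 and 0.27.

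In the 20S core, the 7 alpha ring subunits were all negative in the internal mammary artery (median -0.09) and on average. PSMA7, an alpha ring subunit, came closest to the threshold. It was 12.29 to 12.55 in exercised and 12.54 to 12.65 in sedentary internal mammary arrays, with every exercised array below the sedentary mean, and the average difference was -0.13 (standard error 0.04, adjusted p = 0.0595). PSMA4 had -0.15 (adjusted p = 0.0835). The 8 beta ring genes had a median of -0.04, with -0.06 for PSMB1 and -0.10 for PSMB3. PSMB5, the subunit that cuts after hydrophobic residues and is the target of bortezomib, had 0.04 (adjusted p = 0.761).

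In the 19S cap, the 5 measured ATPases, which unfold the substrate, had average differences of -0.09 for PSMC2 to 0.11 for PSMC3 and none passed. A second probe set of PSMC2 did pass on average, with -0.18 (adjusted p = 0.0460). All 12 other measured cap genes were negative in the internal mammary artery (median -0.06). PSMD12 had -0.21 on average (adjusted p = 0.162), and PSMD14, the deubiquitinase of the cap, had -0.14 (adjusted p = 0.247).

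Among activators, PSME3, which forms the activator ring of the nucleus, was 8.01 to 8.34 in exercised and 7.95 to 8.91 in sedentary brachial arrays. Every exercised array lay below the sedentary mean in both arteries, and the average difference was -0.26 (standard error 0.08, adjusted p = 0.0722). PSME1 and PSME2, whose ring is induced by interferon gamma, had 0.06 and 0.00. PSMB10, the immunoproteasome subunit kept among the members, had 0.07 (adjusted p = 0.776).

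In each group 1 or 2 pigs held the highest value of many proteasome subunits. The mean of the 32 subunits was 11.30 in the brachial artery of exercised pig 10_5, with 11.02 to 11.09 in the other 6 exercised pigs. The same pig had 11.22 in the internal mammary artery, against 10.99 to 11.13 in the other 7. Pig 10_5 held the highest exercised value for 23 of 32 subunits on brachial and 21 of 32 on internal mammary arrays. Sedentary arrays ran from 11.00 to 11.21 and from 11.09 to 11.28. Among them pig 17_1 was highest for 16 of 32 subunits in the brachial artery, and pigs 10_2 and 12_3 for 16 and 12 of 32 in the internal mammary artery. Without pig 10_5, 26 of 32 subunits were negative in the brachial artery (median -0.07) and 29 of 32 in the internal mammary artery (median -0.08). On average 2 subunits then passed, PSMA7 (-0.15, adjusted p = 0.0255) and PSMA4 (-0.18, adjusted p = 0.0427), beside 2.94% of all probe sets. The brachial median also moved, to -0.05 without pig 15_1, and nearer to 0 without 10_1 (-0.02), 15_2 (-0.02), 15_4 (-0.02) or 17_1 (-0.01, 18 of 32 negative). It was -0.01 in the first 8 pigs, with 17 of 32 negative, and -0.01 in the last 7, with 19 of 32.

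**Figure D4:**
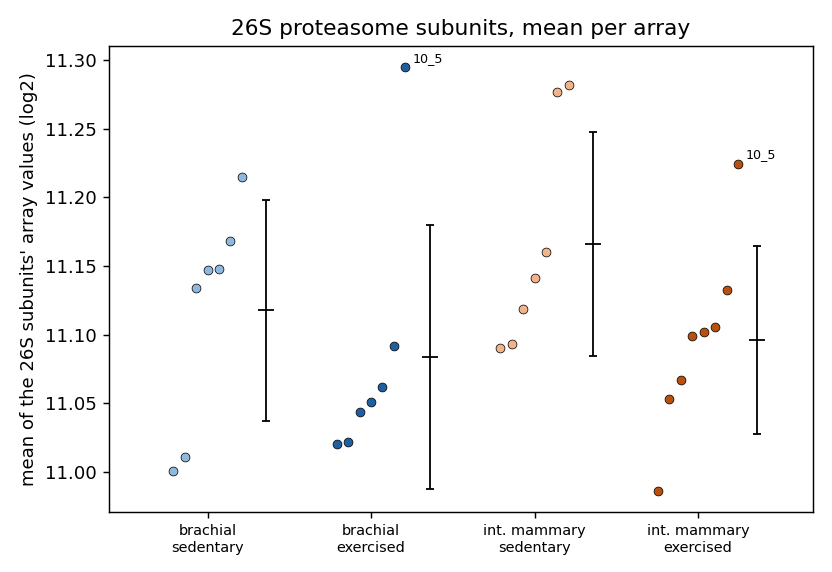
Mean array value (log2, vertical axis) of the 32 subunits of the 26S proteasome on each array, by artery and training group; points are pigs, and the tick with bars is the group mean with its SD. Exercised pig 10_5 is the highest of its group in both arteries, at 11.30 and 11.22, and the groups overlap.

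Between the arteries, 17 members were higher in the brachial artery and 20 higher in the internal mammary artery. These 37 of 88 members (42.0%) compare with 54.3% of all probe sets. Of all calls 58.6% were higher in the brachial artery; this was 69.4% with arrays centred on their medians and 46.5% with the dimmest 33.3% of probe sets left out. Centring moved the median of all probe sets from 0.03 to 0.08 and that of the 32 subunits from -0.03 to 0.02, so no direction is given for the subunits as a group. With the actin gap, which does not overlap between arteries, as a covariate, 13 members passed, of which 9 were among the 37. The share of all probe sets that passed was then 20.2%, against 54.3% without it.

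Of the deubiquitinases, USP30, which sits on the outer membrane of mitochondria, was the member with the largest excess in the brachial artery. Its values were low, 5.19 to 5.77 in brachial and 4.68 to 5.15 in internal mammary arrays, and the arteries did not overlap. It was higher in the brachial artery in 14 of 14 pigs, by 0.53 (standard error 0.05, adjusted p = 8.17e-10, limma). USP5, which takes apart free ubiquitin chains, was higher by 0.33 (13 of 14 pigs, adjusted p = 2.81e-05). USP8, a deubiquitinase of endosomes, was lower in 13 of 14 pigs, with a log2 difference of -0.33 (adjusted p = 2.79e-06).

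Among E2 enzymes UBE2D3, a partner of many RING ligases, was lower in the brachial artery in 14 of 14 pigs. It was 9.68 to 10.18 in brachial and 10.18 to 10.73 in internal mammary arrays, with a difference of -0.46 (standard error 0.04, adjusted p = 5.48e-10, limma). Its relative UBE2D4 went the other way, 0.32 higher in 14 of 14 pigs (adjusted p = 3.01e-06). UBE2M was higher by 0.38 in 13 of 14 pigs (adjusted p = 9.57e-06). UBE2L3, which serves HECT and RBR ligases, was higher by 0.24 in 14 of 14 pigs (adjusted p = 1.62e-06), as was UBE2N by 0.18 in 14 of 14 (adjusted p = 0.000587). UBE2QL1 was higher by 0.40 in 12 of 14 pigs, with a wide 95% interval (0.11 to 0.68, adjusted p = 0.0180).

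The membrane ligases split by gene. MARCH5, of the mitochondrial outer membrane, was lower in the brachial artery in 14 of 14 pigs (-0.38, adjusted p = 2.04e-06), yet 0.01 with the actin gap as a covariate. MARCH6, of the endoplasmic reticulum, was lower in 13 of 14 pigs (-0.24, adjusted p = 5.75e-05). MARCH9 was higher in 14 of 14 (0.29, adjusted p = 6.88e-06). MARCH3 had 0.17 and was higher in 6 of 14 pigs, without passing (adjusted p = 0.568).

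In the proteasome, 15 of 32 subunits passed between arteries, 6 higher and 9 lower in the brachial artery. This is 46.9%, beside 54.3% of all probe sets. PSMA4 was lower in 14 of 14 pigs, at 11.19 to 11.59 in brachial and 11.50 to 11.92 in internal mammary arrays. The difference was -0.34 (standard error 0.04, adjusted p = 2.44e-08, limma). Its call was lost in 1 of the 16 alternatives other than leaving out 1 pig (adjusted p = 0.0541). The beta ring genes PSMB2, PSMB6 and PSMB5 were higher by 0.20, 0.19 and 0.16. Of the 12 non-ATPase genes of the cap 6 were lower and 1 higher (58.3% passed). Among the lower ones were PSMD10 (-0.22) and PSMD12 (-0.18), and PSMD10 turned to 0.25 with the actin covariate. The activators PSME3 and PSME4 differed in opposite directions, -0.31 and 0.19, and PSME4 was -0.04 with that covariate.

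**Figure D5:**
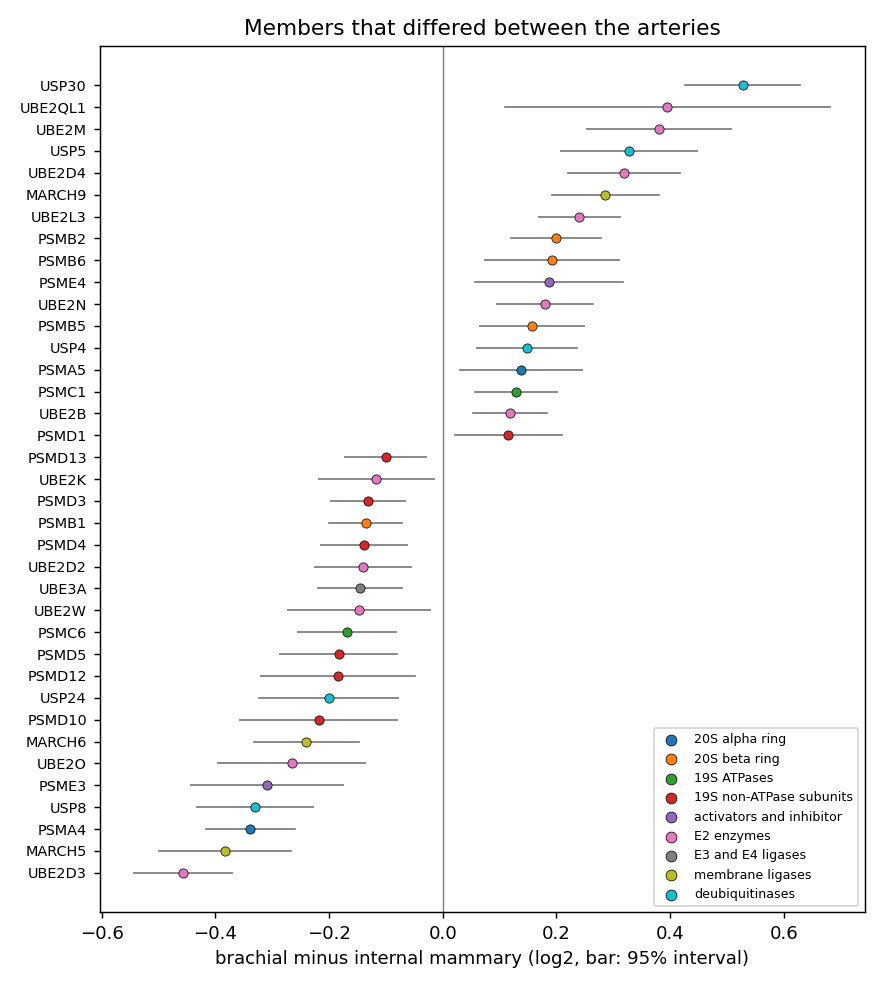
Log2 difference brachial minus internal mammary (horizontal axis) of the 37 members with an adjusted p under 0.05, with 95% intervals; colours give the role of each gene. USP30 is at the top with 0.53 and UBE2D3 at the bottom with -0.46, and genes of most roles lie on both sides of 0.

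Probe sets of the same gene did not always give the same sign. Of the 26 members with more than 1 probe set, the signs were alike in 21 for the average training difference and in 14 between arteries. Between arteries, 5 genes had probe sets that passed in opposite directions: PSMD11, UBE2D2, UBE2O, USP16 and USP4. For PSMD11 the brightest probe set gave -0.08 and did not pass, and the other 2 gave -0.50 and 0.38. For UBE2D2 they gave -0.14, -0.29 and 0.17, and for UBE2O -0.27 and 0.15. The passing probe sets gave -0.71 and 0.18 for USP16 and 0.15 and -0.39 for USP4. Whether the probes' place along the transcript has a part in this was not tested.

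Of 103 other genes of the ubiquitin pathway that were listed (ubiquitin genes, ubiquitin-like modifiers and their E1 enzymes, cullins, further ligases and deubiquitinases, signalosome subunits and shuttle factors), 47 were measured. On average over both arteries 1 fell and none rose, where 4.68% of all probe sets passed. The same gene was the single one to pass in the brachial artery, where 1.63% of all probe sets passed. None passed in the internal mammary artery, where 0.596% of all probe sets did. The gene that passed was UBA2, a subunit of the E1 enzyme for SUMO. UBA2 was 10.39 over a median of 10.55 to 10.71 in exercised and 10.73 over 10.86 to 11.06 in sedentary brachial arrays, which did not overlap. Internal mammary arrays gave 10.35 over 10.44 to 10.60 and 10.42 over 10.66 to 11.05. UBA2 fell on average (-0.26, standard error 0.05, adjusted p = 0.00461, limma) and in the brachial artery (-0.29, adjusted p = 0.0264). The brachial difference was -0.19 (adjusted p = 0.411) with the macrophage covariate, and its call was also lost without pig 10_1, 11_3 or 15_2. SUMO2, one of the modifiers that this enzyme activates, had -0.03 on average and did not pass.

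Between arteries 9 of the 47 were higher and 12 lower in the brachial artery, where 54.3% of all probe sets passed. TRAF6, a ligase of inflammatory signalling that works with UBE2N, was lower by a large step: 4.89 to 6.36 in brachial and 6.32 to 7.24 in internal mammary arrays, a difference of -1.18 (standard error 0.12, adjusted p = 6.54e-09, limma). RNF13, a membrane ligase of endosomes, had -0.59. FBXW7 and TXNL1 were lower as well, with -0.30 and -0.20. STUB1, the ligase that works with heat shock chaperones, was higher by 0.37, OTUB1 by 0.32, COPS3 by 0.20 and SUMO2 by 0.15.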

How the data were processed

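The deposited table holds log2 probe set intensities, 1 column per array, that the authors computed; per the submitters' processing notes the affy package was used, with no version. How probes were summarised and normalized is not given in the sources used here. Platform symbols were taken from the annotation table: 10069 probe sets had 1 symbol, 198 several and 13732 none, and the last 2 kinds were tested but not named. Of the 126 member probe sets 122 had an Entrez identifier in the reference gene table, all with the same symbol.

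After 124 controls were set aside, 23999 probe sets were fitted in R 4.3.3 (limma 3.58.1) on the means of the 4 groups. Pig was a random block, with a consensus correlation of 0.255, because the labels give the pig's identifier for each artery. Benjamini-Hochberg adjustment ran over all probe sets, with a threshold of 0.05. Groups came from the titles; for the 8 internal mammary samples of exercised pigs, the source field instead says sedentary, while title and treatment tag say exercised. Different pigs were the replicates. The main fit took the spread of a probe set from the arrays of all groups together. It used the same correlation between a pig's arteries (0.255) for every probe set. P-values for the average over both arteries therefore rest on that shared correlation too, and not on the spread between pigs alone. Most pigs gave both arteries. In the main fit the p-values between arteries and between the training effects rest on the same pooled spread and shared correlation. Only the fit with pig as a fixed block took its spread from the differences between a pig's arteries.

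The scripts were tested on simulated data. Members, roles and lists were chosen with earlier results of these data known. Genes named were those passing (at most the 12 largest in each direction), where fewer than 10 passed also the 5 of each sign with the smallest p, in each role the 2 with the smallest p (average and artery) and the highest mean, and up to 4 passing genes in each direction of the list of other pathway genes; other genes named for their role were chosen after their values were seen. Alternatives are given in the closing section; those on the period of collection, split at day 28, were chosen after seeing the data. Figures were drawn with matplotlib 3.10.9 (Python 3.11.15). No sequences are printed.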

Additional observations from a re-analysis of the deposited data

Results flagged for a closer look

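Among the 56 members named, each of the 4 groups was searched for an array standing apart from the rest of its group, which is 224 searches. There were 14 such arrays, where chance gives about 1 in 20, or 11.2. Pig 10_5 made up 7 of them, all on the high side: in its brachial array MARCH2 (10.65), PSMA5 (10.77), PSMB1 (11.87), PSMB2 (12.14), PSMB4 (12.38) and PSMB5 (11.62), and in its internal mammary array PSMB4 (12.30). These genes share the array, so they are not separate observations. MARCH3 stood apart high in the internal mammary array of exercised pig 15_4 (8.34).

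The others were single genes. In exercised internal mammary arrays PSMC2 was low in pig 15_2 (10.24) and UBE2O high in pig 10_1 (9.43). In exercised brachial arrays UBE2E3 was low in pig 11_3 (11.61). In sedentary brachial arrays PSMD10 was high in pig 12_3 (9.88) and USP30 high in pig 11_1 (5.52). In sedentary internal mammary arrays MARCH5 was low in pig 13_2 (6.90).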

How the results depend on the processing

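The counts of members that passed moved with the handling of the pairing by pig, with covariates and with the pigs included. With no replicate block 1 member passed in the brachial artery and 11 on average, beside 1.39% and 8.32% of all probe sets. With pig as a fixed block 1 and 0 passed, beside 0.508% and 1.52% of all probe sets. Centring the arrays left 1 in the brachial artery, beside 1.50% of all probe sets. The macrophage covariate left 0 in the brachial artery and 1 on average. Of all probe sets it left 0.0708% and 1.75%, against 1.63% and 4.68% in the main fit. The smooth muscle covariate gave 4 in the brachial artery, where 3.15% of all probe sets passed. The actin covariate gave 4 in the brachial artery, 1 in the internal mammary artery and 13 between arteries. Of all probe sets 2.46%, 1.06% and 20.2% passed there. The 8 pigs collected first gave 0 in the brachial artery, 2 on average and 23 between arteries, and the 7 collected last 0, 0 and 24. Of all probe sets 0.0458%, 1.05% and 37.6% passed in the first 8 pigs and 0%, 0.117% and 35.8% in the last 7. Leaving out 1 pig gave 0 to 2 in the brachial artery and 0 to 1 in the internal mammary artery (1 without 15_4 or 17_1). It gave 3 to 8 on average (3 without 10_1, 4 without 11_3, 12_3 or 12_5) and 35 to 42 between arteries. Of all probe sets 0.621% to 2.45%, 0.146% to 1.21%, 2.94% to 5.10% and 51.3% to 55.1% passed in these comparisons. The test of the difference between training effects called 0 members under every alternative run. Between arteries UBE2D3, UBE2D4, UBE2L3, UBE2M and MARCH6 kept their calls in all 16 alternatives other than leaving out 1 pig, and USP30 in all 15 that included it. Of these 16, PSMA4, PSMB2, PSME3, USP5, USP8, MARCH5 and MARCH9 lost theirs in 1. UBE2N lost it in 2, PSMB5, PSMB6 and PSME4 in 3, PSMD10 in 4, and PSMD12 and UBE2QL1 in 6.

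Medians of roles moved by more than the spread between pigs in these cases. With the actin covariate the medians between arteries were -0.038 for activators, 0.41 for assembly chaperones, 0.098 for E2 enzymes and -0.063 for deubiquitinases. With the macrophage covariate the median log2 change of deubiquitinases, brachial training change minus internal mammary training change, was -0.00618. In the first 8 pigs the assembly chaperones had -0.36 and the UBE3 and UBE4 ligases -0.15 in the internal mammary artery, those ligases -0.16 on average, and the membrane ligases -0.12 between training effects. In the last 7 pigs the internal mammary medians were 0.074 for the chaperones and 0.072 for those ligases.

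These log2 changes turned sign. PSMG3 on average was 0.041 with array weights, 0.0018 centred, 0.0091 with the fixed replicate block, 0.10 in the last 7 pigs, 0.00068 with the macrophage covariate, 0.0014 with no replicate block, 0.015 with the period, 0.0065 after quantile normalization, 0.070 with the smooth muscle covariate, and -0.049 to 0.046 with 1 pig left out. PSMG1 between arteries was -0.024 with the 28S/18S ratio, -0.023 in the first 8 pigs, -0.0013 with the fixed replicate block, -0.0030 with the macrophage and -0.0036 with the smooth muscle covariate, and -0.026 to 0.019 with 1 pig left out. With the actin covariate MARCH5 was 0.014, PSMD10 0.25 and PSME4 -0.038 between arteries. Between training effects PSMD5 was 0.015 in the last 7 pigs, USP30 -0.073 in the first 8 and UBE2E3 -0.014 with its most variable probe set, which for USP7 gave 0.021 in the brachial artery. UBE4A on average was 0.0071 with the macrophage covariate. The cause was not tested. UBA2 lost its average call with the fixed replicate block (adjusted p = 0.0520), the macrophage covariate (adjusted p = 0.053) and within either period.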
